A study of Mus musculus with 4 samples.

Results

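The genes described here act in homologous recombination, the Fanconi pathway and mismatch repair of DNA, together with a few partners: the lesion sensors Xpc and Ddb2, the polymerases Polk and Polq, and the checkpoint kinases Chek1, Chek2, Atm and Atr. They were chosen by name, as a list of 39 genes, with earlier results of these data known. A probe set was assigned to a gene by its symbol in the platform annotation. Of the 39 genes, 37 were matched, each by 1 probe set, out of 22206 probe sets for 19505 genes. Rad54b and Xrcc2 had no matched probe set and were not analysed here. The arrays measured Neuro-2a cells, a mouse neuroblastoma line that divides in culture and carries neuronal traits. Semi-confluent cells received 30 µM deltamethrin, a pyrethroid insecticide that keeps voltage-gated sodium channels open, or the vehicle alone (0.1% DMSO), each for 24 h. There were 2 arrays of deltamethrin-treated cells and 2 arrays of vehicle-treated cells, all of the same unmodified line in serum-containing medium. The labels do not state whether the 2 arrays of a group came from separate cultures, so the p-values reflect the spread between these arrays alone, and that spread may be technical.

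Homologous recombination mends double-strand breaks by copying the sister chromatid, and so works mainly in S and G2 phase. Broken ends are trimmed to single strands, BRCA1 and BRCA2 complexes prepare them for strand exchange, and helicases and nucleases then take the joined molecules apart. The Fanconi proteins unhook crosslinks between the DNA strands: a core complex with the E2 enzyme UBE2T attaches ubiquitin to FANCD2 and FANCI, and the repair is finished by recombination. Mismatch repair removes replication errors through MSH and PMS proteins. Many of these genes are transcribed in step with the cell cycle, under E2F factors among others, so their level in a culture varies with how many cells are dividing. In RNA from a whole culture, fewer cells in a cycle phase and less transcript per cell cannot be told apart.

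Estimates for homologous recombination transcripts were mostly lower in deltamethrin-treated cells: they were negative for 13 of 15 measured genes, and both deltamethrin arrays lay below both vehicle arrays for 11. The arrays of the 2 groups overlapped for the apical kinase genes Atm and Atr, for Xpc, and for 5 of the 9 genes of the Fanconi core complex and its E2 enzyme. Of all 22206 probe sets, 12467 overlapped, a share close to that of the 9 Fanconi core and E2 genes. Over the whole list, estimates ran from a log2 fold change (deltamethrin minus vehicle) of -1.16 for Xrcc3 to 0.50 for Ddb2, with a median of -0.29 over the 37 genes against -0.02 over all probe sets. A lower estimate was found for 29 of the 37 genes (78.4%), against 52.9% of all probe sets. No gene of the list passed limma's test at an adjusted p below 0.05 (0 of 37), a threshold that 0.432% of all probe sets passed in either direction. At an unadjusted p below 0.05 in limma, 15 of 37 genes (40.5%) were lower and 0 were higher, where 6.84% of all probe sets were lower and 6.83% higher. All 37 genes were brighter than the median probe set, and among the 11103 probe sets above it 8.32% were lower at that threshold. Both deltamethrin arrays lay below both vehicle arrays for 22 of the 37 genes (59.5%), against 23.5% of all probe sets, and above them for 2 (Ddb2 and Chek2), against 20.3%. For 14 of the 37 (37.8%) the arrays were separated downward with a log2 fold change below -0.5, against 5.79% of all probe sets. As the list was chosen with earlier results known, these shares are a description and do not test the list against all probe sets.

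The calls of single genes depended on how limma shares the variance among probe sets. With a trend of the variance on the level, 6 of the 37 genes (16.2%) passed an adjusted p below 0.05, all lower, against 1.38% of all probe sets called lower in that fit and 2.68% of those above the median level. These were Blm (adjusted p = 0.0132), Brca1 (0.0169), Xrcc3 (0.0191), Brip1 (0.0280), Fancb (0.0377) and Exo1 (0.0410). In the fit without the trend, the smallest adjusted p of the list was that of Xrcc3, at 0.0939. Values below are normalised log2 levels per array, and a log2 fold change is followed by its SE (n = 2 for each group). The design with 2 arrays against 2 cannot give an exact permutation p under 0.333 for a single gene. Leaving out any 1 array left fewer genes lower at an unadjusted p below 0.05 in limma, and fewer of all probe sets reached that threshold as well. Without vehicle replicate 2 the genes of the list at that threshold were no longer all lower. The median log2 fold change of the 37 genes ran from -0.36 to -0.30 over these refits, which had 1 array in a group.

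**Figure D1:**
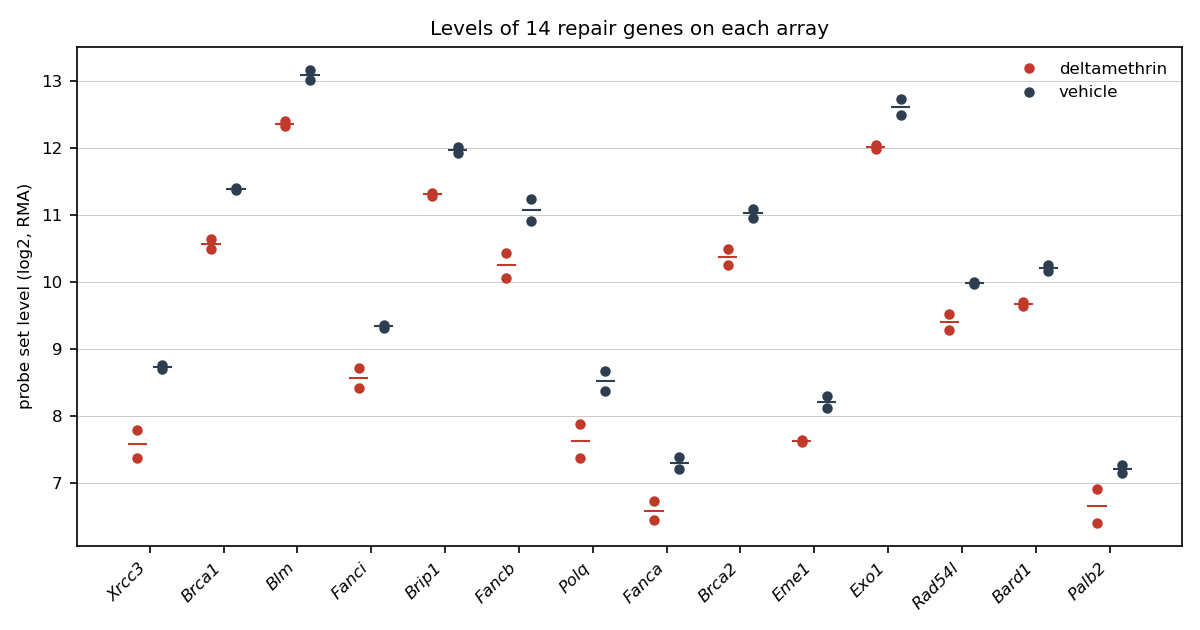
Normalised log2 level of the 14 repair genes with a log2 fold change below -0.5 on each array, with deltamethrin left of vehicle, 1 point per array and a short line at the mean of the 2 arrays. For each of these genes both deltamethrin points lie below both vehicle points, from Xrcc3 (means of 7.59 with deltamethrin and 8.74 with vehicle) to Palb2 (6.67 with deltamethrin and 7.21 with vehicle).

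All 5 genes of the BRCA complexes were lower at an unadjusted p below 0.05 in limma, against 6.84% of all probe sets. Their log2 fold changes ran from -0.81 to -0.53. Brca1 encodes a ubiquitin ligase that promotes end trimming, and its level was 10.65 and 10.50 on the deltamethrin arrays, against 11.37 and 11.40 on the vehicle arrays. The gap between the groups was larger than the gap within either, with a log2 fold change of -0.81 ± 0.17 (95% interval -1.21 to -0.41, adjusted p = 0.136 in limma), which is a deltamethrin level 0.570 times that of vehicle. Bard1, whose product pairs with BRCA1 in the ligase, had levels of 9.65 and 9.71 with deltamethrin, against 10.25 and 10.17 with vehicle (-0.53 ± 0.16, adjusted p = 0.251). Brca2, whose product acts on the trimmed single strands, had 10.26 and 10.49 with deltamethrin, against 10.96 and 11.09 with vehicle (-0.65 ± 0.18, adjusted p = 0.207). The groups did not overlap for either gene. Palb2, the bridge between BRCA1 and BRCA2, had 6.41 and 6.92 with deltamethrin, against 7.15 and 7.27 with vehicle. Its deltamethrin arrays had an SD of 0.36, and the estimate of -0.55 ± 0.22 (adjusted p = 0.351) moved to -0.29 without deltamethrin replicate 1. Brip1, the helicase that binds BRCA1 and is also a Fanconi protein, had 11.33 and 11.29 with deltamethrin, against 11.93 and 12.01 with vehicle (-0.66 ± 0.16, adjusted p = 0.183). Both deltamethrin arrays lay below both vehicle arrays for all 5 genes, against 23.5% of all probe sets.

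Xrcc3 had the lowest estimate of the list. Its product works with that of Rad51c late in recombination. Its level was 7.79 and 7.38 on the deltamethrin arrays, against 8.71 and 8.77 on the vehicle arrays, a log2 fold change of -1.16 ± 0.20 (95% interval -1.63 to -0.68, adjusted p = 0.0939 in limma). Both deltamethrin arrays lay far below the vehicle pair. Rad51c, which encodes the direct partner of XRCC3, had 12.20 and 12.73 with deltamethrin, against 12.31 and 12.05 with vehicle, with overlapping arrays and an estimate of 0.28 ± 0.23, which was 0.02 without deltamethrin replicate 2 and 0.55 without deltamethrin replicate 1. Rad54l, a motor protein of strand exchange, had 9.52 and 9.28 with deltamethrin, against 10.00 and 9.98 with vehicle (-0.59 ± 0.17, adjusted p = 0.235). Rad51ap1, a cofactor of strand exchange, overlapped between the groups (0.04 ± 0.18, 95% interval -0.39 to 0.47). Among the strand exchange genes, 2 of 4 measured genes were thus separated downward and 2 overlapped. Of all 22206 probe sets, 5221 were separated downward and 12467 overlapped.

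Among the enzymes that process joined molecules, Blm and Eme1 were both lower. Blm, the helicase lost in Bloom syndrome, which dissolves double Holliday junctions, had 12.33 and 12.40 with deltamethrin, against 13.02 and 13.17 with vehicle (-0.73 ± 0.17, adjusted p = 0.161 in limma). Eme1, the partner of the junction-cutting nuclease MUS81, had 7.61 and 7.64 with deltamethrin, against 8.13 and 8.31 with vehicle (-0.59 ± 0.17, adjusted p = 0.221). In end resection, Exo1, the nuclease of long-range trimming, had 12.04 and 11.99 with deltamethrin, against 12.50 and 12.73 with vehicle (-0.60 ± 0.17, adjusted p = 0.227). The 3 genes of the MRE11-RAD50-NBS1 complex, which finds the break and starts the trimming, were spread. Nbn had the lowest estimate of them at -0.41 ± 0.18 with separated arrays, Mre11a was at -0.25 ± 0.21 and Rad50 at -0.02 ± 0.18, both with overlapping arrays. Without vehicle replicate 2 the estimate of Mre11a was -0.02, and without vehicle replicate 1 it was -0.48. Over the 15 measured recombination genes, 10 (66.7%) were lower at an unadjusted p below 0.05 in limma, against 6.84% of all probe sets. The median log2 fold change of the 15 genes was -0.59. The mean level of these 15 genes was 10.18 and 10.23 on the deltamethrin arrays, against 10.65 and 10.73 on the vehicle arrays.

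The promoters of the genes with the smallest p-values are shown because recombination genes often share binding motifs of cell-cycle factors just upstream of their start. The 4 genes were Xrcc3, Brca1, Blm and Fanci. Ube2t is added for contrast, chosen after its values were seen, as a Fanconi gene with an estimate of -0.01. Each run is the 250 bases before the annotated start, 5′ to 3′ on the gene's own strand, from RefSeq on build GRCm38.p6. Capitals mark matches on either strand to CCAAT, the core of NF-Y sites, to the E2F-type letters (TTCCCGC, or else TTGGCGC, or else TTGCCGC, or else TTCGCGC), and to the letters of the cell-cycle homology region, called CHR (TTTGAA, or else TTCGAA).
Xrcc3, chr12:111813880-111814129, - strand: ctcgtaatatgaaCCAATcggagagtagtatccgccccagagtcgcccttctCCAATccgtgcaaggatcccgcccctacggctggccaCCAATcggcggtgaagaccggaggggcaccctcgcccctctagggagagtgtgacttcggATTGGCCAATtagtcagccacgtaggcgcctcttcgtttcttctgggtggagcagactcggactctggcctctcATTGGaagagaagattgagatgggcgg
Brca1, chr11:101551956-101552205, - strand: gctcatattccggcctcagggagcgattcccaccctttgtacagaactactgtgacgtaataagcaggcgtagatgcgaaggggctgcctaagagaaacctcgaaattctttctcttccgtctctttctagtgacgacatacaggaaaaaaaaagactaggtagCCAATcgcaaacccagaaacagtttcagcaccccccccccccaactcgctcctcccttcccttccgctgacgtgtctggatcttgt
Blm, chr7:80534999-80535248, - strand: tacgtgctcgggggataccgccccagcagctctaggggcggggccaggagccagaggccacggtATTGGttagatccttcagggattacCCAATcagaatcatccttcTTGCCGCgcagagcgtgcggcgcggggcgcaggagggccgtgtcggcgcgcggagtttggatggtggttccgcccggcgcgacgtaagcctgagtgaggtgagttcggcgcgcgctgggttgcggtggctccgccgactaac
Fanci, chr7:79392088-79392337, + strand: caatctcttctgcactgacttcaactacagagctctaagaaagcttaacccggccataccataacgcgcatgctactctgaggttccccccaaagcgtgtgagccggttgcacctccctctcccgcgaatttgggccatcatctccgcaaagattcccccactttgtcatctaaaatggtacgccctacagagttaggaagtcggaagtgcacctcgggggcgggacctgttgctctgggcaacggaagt
Ube2t, chr1:134962315-134962564, + strand: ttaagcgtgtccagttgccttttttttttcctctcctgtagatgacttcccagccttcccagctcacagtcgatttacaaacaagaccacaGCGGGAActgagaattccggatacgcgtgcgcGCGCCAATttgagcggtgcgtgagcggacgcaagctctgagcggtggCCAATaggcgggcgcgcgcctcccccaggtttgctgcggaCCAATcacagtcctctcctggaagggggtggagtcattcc

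The Xrcc3 promoter held 6 CCAAT matches and no E2F-type match in the searched window, which runs from 250 bases before to 50 after the start. The Brca1 window held CCAAT at -86, counted from the start, and TTGGCGC on the opposite strand from base 22 after it. In Fanci the only match was TTCCCGC on the opposite strand, from base 19 after the start, so its printed run has no capitals. Blm held 2 CCAAT matches and TTGCCGC at -142. Ube2t held 2 E2F-type matches, at -159 and -127, and 3 CCAAT matches, of which the one at -124 overlaps the E2F-type match before it. A RefSeq promoter was found for 31 of the 37 genes. An E2F-type match was present in 20 of the 31 (64.5%), against 14.2% of the 15691 array genes with a promoter entry and 9.57% of all 32851 promoter windows. CCAAT was present in 61.3% of the repair genes, against 42.2% of array genes and 37.4% of all windows, and a CHR-type match in 12.9%, against 19.6% of array genes and 19.2% of all windows. The median G and C content was 59.7% for the repair promoters and 57.0% for array genes. The median log2 fold change was -0.34 for the 20 genes with an E2F-type match (-0.90 to 0.39) and -0.25 for the 11 without (-1.16 to 0.16). It was -0.36 for the 19 genes with CCAAT and -0.29 for the 12 without, and -0.56 for the 4 genes with a CHR-type match and -0.29 for the 27 without. These matches describe the letters in the windows and do not show binding.

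**Figure D2:**
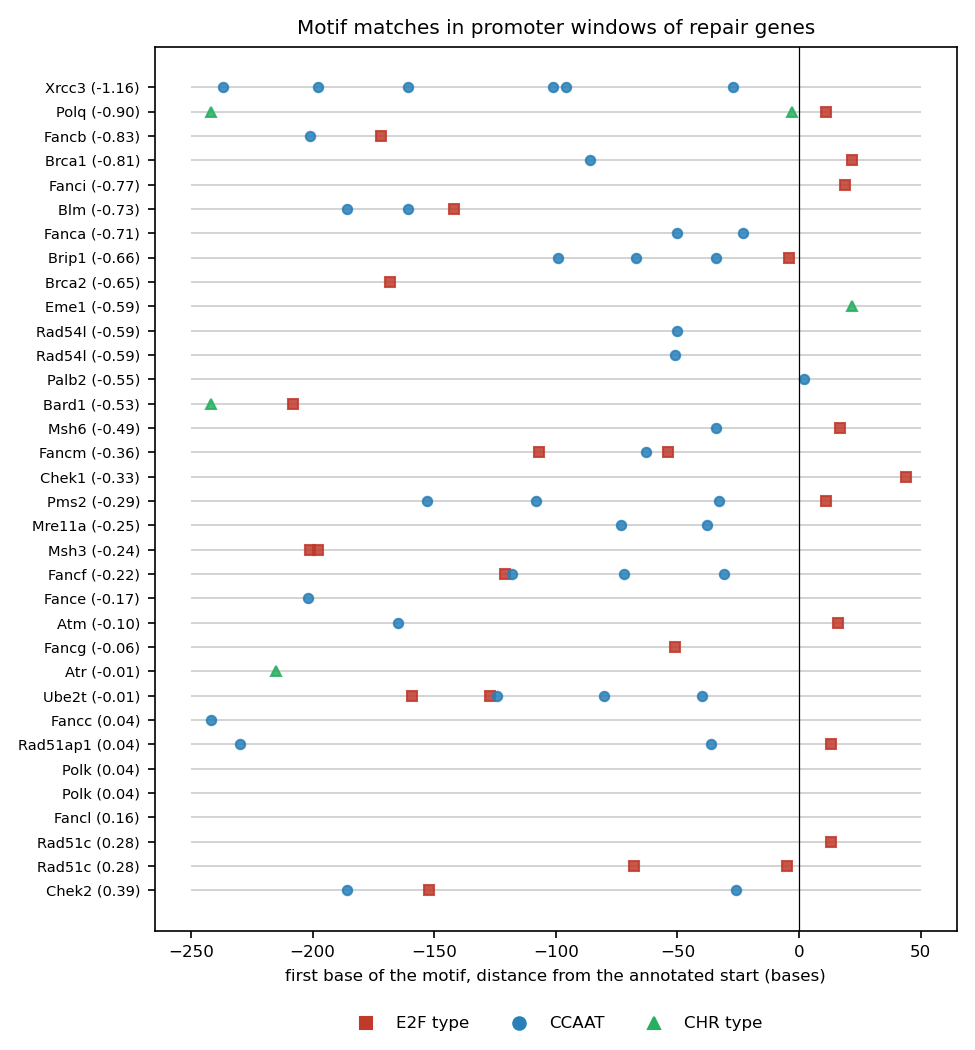
Positions of motif matches in the promoter windows of 31 repair genes (2 windows each for Rad54l, Rad51c and Polk), as the distance in bases from the annotated start, with the genes ordered from the lowest to the highest log2 fold change (in brackets, deltamethrin minus vehicle). Squares (E2F type) occur along the whole order, from Polq (-0.90) to Chek2 (0.39), and Xrcc3, at the top, has circles (CCAAT) only.

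The Fanconi genes were divided. Fancb, a subunit of the catalytic part of the core complex, had 10.43 and 10.07 with deltamethrin, against 11.24 and 10.92 with vehicle (-0.83 ± 0.21, adjusted p = 0.187 in limma). Fanca, a core subunit that is the one most often mutated in human Fanconi anaemia, had 6.73 and 6.45 with deltamethrin, against 7.21 and 7.40 with vehicle (-0.71 ± 0.19, adjusted p = 0.194). Both genes had deltamethrin arrays clearly below the vehicle pair. The other core genes were closer to 0. Fancm, the translocase that anchors the core to DNA, was at -0.36 ± 0.16 with separated arrays, and Fancf, an adaptor of the core, at -0.22 ± 0.17, also separated. Fance (-0.18), Fancg (-0.06), Fancc (0.04), the ubiquitin ligase Fancl (0.16) and Ube2t (-0.01) had overlapping arrays, as had 12467 of all 22206 probe sets. Without vehicle replicate 2 the estimate of Fancf was -0.105 and that of Fance -0.005.

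The substrates of the core, Fanci and Fancd2, form 1 clamp on DNA but gave different estimates. Fanci had 8.42 and 8.72 with deltamethrin, against 9.32 and 9.36 with vehicle (-0.77 ± 0.18, adjusted p = 0.169 in limma). Fancd2 had 10.29 and 10.34 with deltamethrin, against 10.68 and 10.51 with vehicle (-0.28 ± 0.17, adjusted p = 0.529). Arrays were separated for both, but the interval of Fancd2 (-0.69 to 0.13) overlapped that of Fanci (-1.21 to -0.33), and the difference between the genes was not tested. Of the 11 Fanconi genes, 3 (27.3%) were lower at an unadjusted p below 0.05 in limma and 0 were higher. At that threshold 6.84% of all probe sets were lower and 6.83% higher. The median log2 fold change of the 11 Fanconi genes was -0.22. Their mean level was 8.35 and 8.28 on the deltamethrin arrays, against 8.55 and 8.67 on the vehicle arrays.

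Both deltamethrin arrays lay below both vehicle arrays for the 3 mismatch repair genes, against 23.5% of all probe sets, but the estimates were small. Msh6, which serves in the recognition of base mismatches, had 8.77 and 9.02 with deltamethrin, against 9.21 and 9.56 with vehicle (-0.49 ± 0.20, adjusted p = 0.360 in limma). Msh3, which serves in the recognition of larger loops, was at -0.24 ± 0.16, and Pms2, which nicks the strand to be removed, at -0.29 ± 0.19. The estimate of Pms2 was -0.10 without deltamethrin replicate 2 and -0.48 without deltamethrin replicate 1, and that of Msh6 was -0.315 without vehicle replicate 2. Only Msh6 among the 3 had an unadjusted p below 0.05 in limma, and 6.84% of all probe sets were lower at that threshold.

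The 2 polymerases differed from each other in their estimates. Polq, which joins broken ends through short homologies when recombination fails, had 7.38 and 7.89 with deltamethrin, against 8.38 and 8.68 with vehicle. The arrays were separated, with a log2 fold change of -0.90 ± 0.23 (95% interval -1.45 to -0.34, adjusted p = 0.192 in limma). Polk, a translesion polymerase that copies past bulky lesions, had 10.13 and 10.51 with deltamethrin, against 10.23 and 10.32 with vehicle, and its estimate was 0.04 ± 0.19. The 2 intervals overlapped by a small amount, since that of Polk ran from -0.42 to 0.51, and the difference between the genes was not tested.

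Ddb2 and Chek2 had the highest estimates of the 37 genes, and neither passed the test. Ddb2, a p53-responsive gene in human cells whose product finds ultraviolet photoproducts, had 6.51 and 6.35 with deltamethrin, against 5.60 and 6.27 with vehicle. Its arrays were separated by a narrow margin and vehicle replicate 1 was the low one, so the estimate of 0.50 ± 0.25 (adjusted p = 0.449 in limma) rested largely on that array and was 0.16 without it. Xpc, the general sensor of helix distortion, was at 0.03 ± 0.19. Chek2, the kinase that ATM activates after breaks, had 10.81 and 10.47 with deltamethrin, against 10.14 and 10.37 with vehicle, which were separated by a narrow margin as well (0.39 ± 0.20, adjusted p = 0.457). Its estimate was 0.215 without deltamethrin replicate 1. Chek1, which slows replication on signals from ATR, had 12.46 and 12.37 with deltamethrin, against 12.80 and 12.68 with vehicle (-0.33 ± 0.17, adjusted p = 0.456).

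Atm and Atr, the kinases at the top of the break and replication stress pathways, were nearest to 0 among the 4 checkpoint kinases. Atr had 9.54 and 9.57 with deltamethrin, against 9.60 and 9.52 with vehicle, and its 95% interval allowed a deltamethrin level from 0.759 to 1.31 times that of vehicle. Atm, at -0.10 ± 0.22, allowed 0.647 to 1.35 times. These intervals are not adjusted for the number of genes. Differences of Atm and Atr within such bounds remain possible, and no limit of detection was computed.

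**Figure D3:**
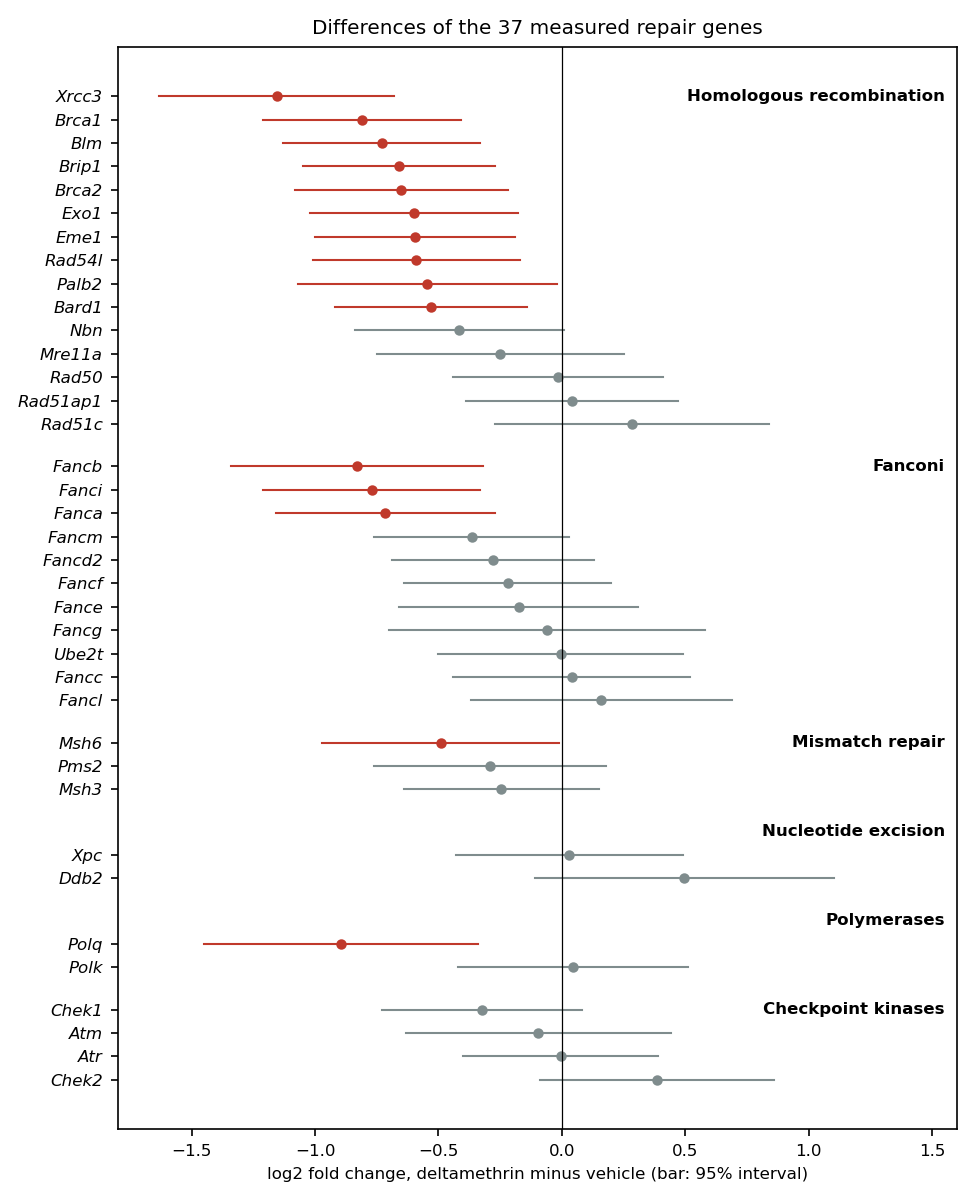
Log2 fold change (deltamethrin minus vehicle) of the 37 measured repair genes by pathway, with the 95% interval from limma as a bar, and red where the unadjusted p is below 0.05. The red genes, 15 in all, lie left of 0, 10 of them in homologous recombination, and no checkpoint kinase or excision sensor is red. Of all probe sets, 6.84% were lower and 6.83% higher at that threshold.

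Other genes of the same pathways were taken from lists without the genes above. Beside each count below, 6.84% of all probe sets were lower and 6.83% higher at an unadjusted p below 0.05 in limma. Of 28 other recombination genes, 4 were lower and 2 higher at an unadjusted p below 0.05 in limma, and the median log2 fold change was -0.05. Dna2, a nuclease of long-range end trimming, was at -0.87 ± 0.18 (adjusted p = 0.139), and Abraxas1, the scaffold of the BRCA1-A complex, which restrains trimming, at 0.76 ± 0.17 (adjusted p = 0.149). Of 14 other Fanconi genes 2 were lower and 0 higher (median -0.22). These were Cenpx, which binds DNA together with FANCM (-0.82 ± 0.20, adjusted p = 0.182), and Usp1, which removes ubiquitin from FANCD2 (-0.52 ± 0.17, adjusted p = 0.272). Of 11 other mismatch repair genes 2 were lower and 0 higher (median -0.16), the clamp loader subunits Rfc2 (-0.42 ± 0.16, adjusted p = 0.338) and Rfc4 (-0.42 ± 0.17, adjusted p = 0.341).

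Of 17 other checkpoint genes 8 were lower and 0 higher at an unadjusted p below 0.05 in limma, with a median of -0.40, and the median of the 4 kinases above was -0.05. The lowest p-values belonged to Cdc25a, the phosphatase that CHK1 targets (-1.12 ± 0.18, adjusted p = 0.0864), and Mdc1, the scaffold that binds phosphorylated H2AX (-0.94 ± 0.17, adjusted p = 0.101). Of 18 other excision repair genes 0 were lower and 1 higher, Gtf2h1, a subunit of the helicase factor TFIIH (0.56 ± 0.17, adjusted p = 0.249). Next by p was Cul4b, a ubiquitin ligase scaffold, at -0.39 ± 0.17 (adjusted p = 0.381). Of 8 other translesion genes 1 was lower, Polh (-0.70 ± 0.17, adjusted p = 0.176), and 1 was higher, Poli (0.54 ± 0.21, adjusted p = 0.336), both Y-family polymerases. In all these lists 0 genes passed an adjusted p below 0.05 in limma, a threshold that 0.432% of all probe sets passed. With a mean-variance trend 3 other recombination genes were called lower and 1 higher, and 2 Fanconi, 4 checkpoint and 1 translesion gene were called lower. In that fit 1 excision gene was called higher and 0 mismatch repair genes were called. Of all 22206 probe sets, 306 (1.38%) were called lower and 500 higher with the trend. No difference between pathways was tested, since genes are not replicates of a pathway.

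**Figure D4:**
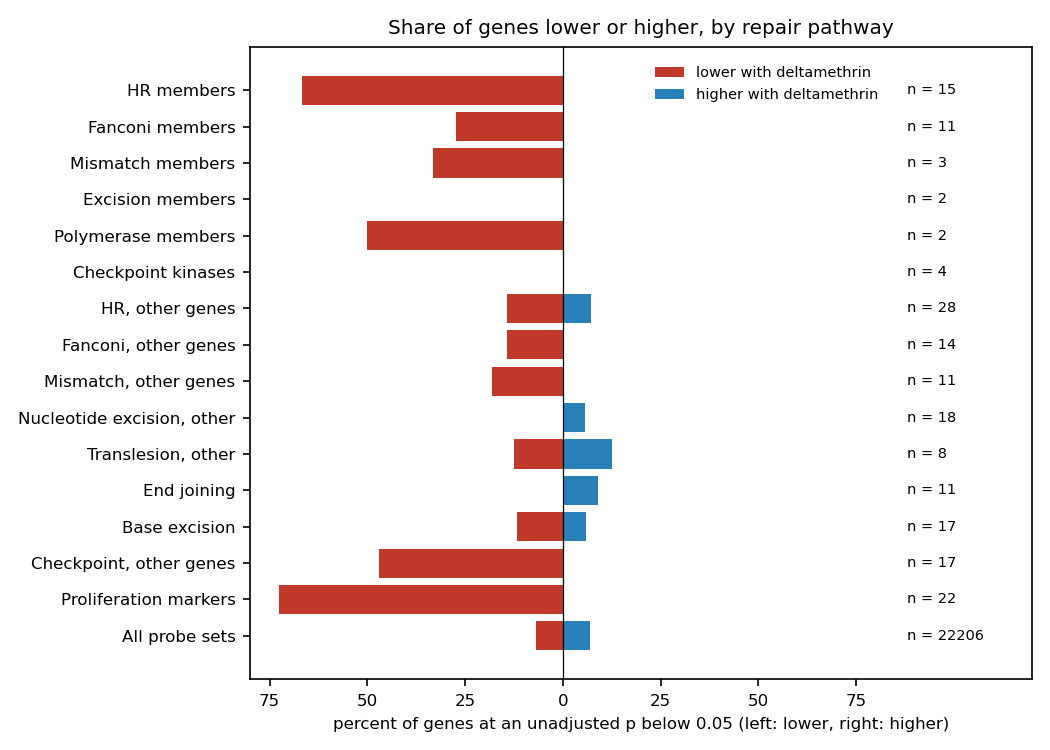
Percent of genes at an unadjusted p below 0.05 in limma. Genes lower with deltamethrin are to the left of 0 and genes higher to the right. Rows are the repair genes by pathway (members), the other genes of each pathway, end joining, base excision, proliferation markers and all probe sets. The number of genes is given as n. The longest bars to the left stand for 16 of 22 proliferation markers and 10 of 15 recombination members. Next are 1 of 2 polymerase members and 8 of 17 other checkpoint genes, and the other rows have shorter bars or none. All probe sets have 6.84% and 6.83% on the 2 sides.

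Markers of dividing cells were lower as well. All 22 measured proliferation markers had a lower estimate, against 52.9% of all probe sets, with a median log2 fold change of -0.60. At an unadjusted p below 0.05 in limma 16 of the 22 markers were lower, against 6.84% of all probe sets. Their mean level was 12.78 and 12.75 on the deltamethrin arrays, against 13.40 and 13.42 on the vehicle arrays. Of the 22, Rrm2, which makes deoxynucleotides for replication and repair, fell by 1.28 ± 0.17 (adjusted p = 0.0464). It was the only one of the 22 called in this fit, in which 0.432% of all probe sets were called. With a mean-variance trend 15 of the 22 were called, all lower, against 1.38% of all probe sets called lower in that fit. The part of cell division in the lower recombination transcripts was not tested. Of the neuroblastoma markers 11 of 14 were matched, with mean levels of 12.34 and 12.18 with deltamethrin, against 12.63 and 12.61 with vehicle. Estimates were lower for 9 of the 11, against 52.9% of all probe sets. At an unadjusted p below 0.05 in limma 5 of the 11 were lower and 1 was higher. Of all probe sets, 6.84% were lower and 6.83% higher at that threshold. The lowest p was that of Isl1, a transcription factor of sympathetic neurons, at -1.14 ± 0.17 (adjusted p = 0.0740, and 0.00173 with a mean-variance trend), and the higher one was Th, the rate-limiting enzyme of catecholamine synthesis, at 0.90 ± 0.27 (adjusted p = 0.242). The part of these markers in the result was not tested. Markers of astrocytes, microglia and fibroblasts had mean levels of 3.98 to 4.37 with deltamethrin, against 3.99 to 4.58 with vehicle, all below the array medians of 5.605 to 5.63.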

How the data were processed

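RNA of Neuro-2a cells was measured on Clariom S Mouse arrays of Affymetrix, per the series' design text. The deposited log2 values, 1 for each probe set on each array, were made by the authors with Transcriptome Analysis Console and RMA (background correction, alignment of the arrays and summary of the probes), per the submitters' processing notes. Neither tool versions nor a genome build is given in the sources used here. This scale was read from the values, 1.92 to 18.75. No detection call was used here, and the number of arrays limits the precision. RMA aligns the arrays, so a shift of most genes would not be seen.

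Groups came from the sample titles. The contrast, deltamethrin minus vehicle, was fitted to all 22206 probe sets with limma 3.58.1 in R 4.3.3 (lmFit and eBayes, no trend, no block), which left 2 residual degrees of freedom, to which moderation added 4.43. All tests were two-sided, with Benjamini-Hochberg adjustment over all probe sets and a threshold of 0.05. The fit and the motif search were tested on simulated data. The median SE of a log2 fold change was 0.19.

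Symbols came from the platform annotation: 19572 probe sets had 1 symbol, 0 several, and 2634 were unnamed here. For the lists of other genes the brightest probe set stood for a gene, and genes with no matched probe set were not analysed here. All members are named. Array values are given for members with separated arrays and an estimate beyond 0.5 in size, and otherwise for the largest of each role group. Array values of Rad51c, Fancd2, Polk, Chek1 and Atr were added after their values were seen. From other lists, called genes or else the 2 of smallest p are named. The members and lists were chosen with earlier results of these data known. Alternatives were a replicate block, a mean-variance trend, robust moderation, a filter that dropped the dimmest 40% of probe sets, quantile, cyclic loess and median scaling, 1 probe set per gene, other thresholds and leaving out each array.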

Additional observations from a re-analysis of the deposited data

How the results depend on the processing

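Over all probe sets 96 were called. The count was 806 with a mean-variance trend, 312 without dim probe sets, 233 at an adjusted p below 0.1, 3035 at an unadjusted p below 0.05, 0 with the replicate block and 0 (0 to 0) with any 1 array left out. Of the repair genes 0 were called, and the count was 6 with the trend, 1 without dim probe sets (Xrcc3), 1 at an adjusted p below 0.1, 15 at an unadjusted p below 0.05, and 0 with the replicate block. The 15 lower at an unadjusted p below 0.05 became 7 to 12 with 1 array left out. Replicate numbers are shared by the groups, but nothing says that they pair cultures. The deviations of same-numbered arrays correlated at 0.13 over all probe sets. The 14 estimates below -0.5 ran from -1.36 to -0.29 over the refits. Their arrays do not overlap, so leaving out 1 array could not turn their sign. Signs near 0 turned. Rad50 was 0.024 with quantile and 0.010 with cyclic loess scaling, and Xpc -0.024 with quantile scaling. With 1 array left out, Rad50 ran from -0.14 to 0.11, Rad51ap1 from -0.06 to 0.14, Fancc from -0.15 to 0.23, Fancg from -0.365 to 0.245, Fancl from -0.045 to 0.365, Ube2t from -0.225 to 0.215, Xpc from -0.105 to 0.165, Polk from -0.145 to 0.235, Atm from -0.295 to 0.105 and Atr from -0.045 to 0.035. The cause was not tested. A lone array was assumed to vary like the other group.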

Other observations

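Repair pathways outside the list were end joining and base excision. Over all probe sets, 6.84% were lower and 6.83% higher at an unadjusted p below 0.05 in limma. Of 11 end joining genes, which mend breaks without a template, 0 were lower and 1 was higher at an unadjusted p below 0.05 in limma, with a median log2 fold change of 0.02. That gene was Xrcc6, which encodes the end-binding protein KU70, with 13.77 and 13.85 on the deltamethrin arrays, against 12.66 and 12.91 on the vehicle arrays (1.02 ± 0.18, adjusted p = 0.0955, and 0.00251 with a mean-variance trend). Poll, a gap-filling polymerase of end joining, was at 0.45 ± 0.21 (adjusted p = 0.409). Of 17 base excision genes 2 were lower and 1 was higher, with a median of -0.04. Ung, the uracil glycosylase, was at -0.60 ± 0.22 (adjusted p = 0.317) and Polb, the gap-filling polymerase, at 0.43 ± 0.16 (adjusted p = 0.334).

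Of 21 measured p53 target genes 6 were higher and 3 lower at an unadjusted p below 0.05 in limma, and 0 passed an adjusted p below 0.05. Over all probe sets, 6.83% were higher and 6.84% lower at that unadjusted threshold. With a mean-variance trend 5 of the 21 were called higher and 2 lower, and of all 22206 probe sets 500 were called higher and 306 lower. Polh, lower as given above, is in this list as well as among the translesion genes. The median log2 fold change was 0.21. The smallest p-values were those of the stress kinase Plk3, at 1.24 ± 0.19 (adjusted p = 0.0793 in limma, and 0.00516 with the trend), and of Trp53inp1, at 1.30 ± 0.23 (adjusted p = 0.0955, and 0.0272 with the trend).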
